A study of Branchiostoma lanceolatum with 6 samples.

Results

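Sox genes encode transcription factors that bind DNA through an HMG box and are sorted into lettered groups by the sequence of that box. In vertebrates, SoxB1 factors such as Sox2 mark the neural plate and neural progenitors, SoxB2 factors such as Sox14 and Sox21 act in the developing nervous system against progenitor programmes, SoxC factors such as Sox4 and Sox11 accompany the differentiation of neurons and of many other embryonic cells, and SoxF factors such as Sox17 act in endoderm and blood vessels. The 4 genes described here represent these groups in the amphioxus *Branchiostoma lanceolatum*: *Soxb1c* (BLAG14000923), *Soxb2* (BLAG14000920), *Soxc* (BLAG02000921) and *Soxf* (BLAG02000861). They are 4 of the 27073 genes in the table of counts and were chosen by their identifiers, which the study prints beside the names.

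The data are a single-cell atlas of wild-type neurula embryos taken 21 hours after fertilization, with no treated or mutant group. Whole embryos were pooled and dissociated, live cells were sorted into the wells of 40 plates, and transcripts were counted by MARS-seq, in which a unique molecular identifier (UMI) lets amplified copies of an mRNA molecule be counted once. The atlas holds 14586 cells in 17 cell types and 176 metacells, which are small groups of cells with like profiles that the authors built from the same counts. The 2 single-cell samples cannot be told apart in the table, in which 0 cell names occur more than once, so all cells are 1 sample with no biological replicate, and every value below is a description without a test across samples. The 4 chromatin accessibility samples of the series were not analysed here.

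A level is the UMIs of a gene summed over a group of cells per 10,000 UMIs of all genes, and the range in brackets is its exact Poisson 95% interval, which covers counting error alone. The atlas holds 2529 UMIs of *Soxb1c* in 1425 cells, 1517 of *Soxb2* in 1090 cells, 4683 of *Soxc* in 2518 cells and 1183 of *Soxf* in 552 cells. Most of these cells held a single UMI of the gene, from 58.3% of the cells with *Soxf* to 73.1% of those with *Soxb2*. A cell had a median of 1585 UMIs of all genes, and the median by plate ran from 465 to 3316. Of the 32 marker genes looked up for the labelled cell types, 27 had their highest level in a type of their own tissue. For neural markers that tissue included the neural-like classes, and *Hey-related*, *Insm* and *Nhlh1/2* were highest in neural-like 2. The authors labelled the types by known markers in the same counts, so this agreement is no independent check of the labels. The exceptions were *Delta*, a neural marker that was highest in muscular somites, and 4 endodermal markers: both *Foxaa* gene models were highest in the notochord, and *Wnt8* and the *Fabp* gene in muscular somites. Levels are not compared between the 4 genes, since transcripts are captured with unequal efficiency and no length scale was used, and reads shared with a close paralog could not be traced in the counts.

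*Soxb1c* was highest in the neural plate, *Soxb2* had UMIs in both neural plate and epidermis, *Soxc* was higher in neural plate, endoderm and mesoderm than in epidermis, and *Soxf* led in endoderm with endostyle and club-shaped gland, which held 65.2% of its UMIs and 8.79% of the UMIs of all genes. The fold of a type is its level over that of all other cells. Among genes with at least 50 UMIs in neural cells, 24.5% reached a fold of 2 there, and 3 of the 4 Sox genes did so. In endoderm the background was 28.5%, and *Soxf* reached that fold while *Soxb1c*, *Soxb2* and *Soxc* passed the minimum without reaching it. In the endostyle and club-shaped gland the background was 32.8%, and the 3 Sox genes with enough UMIs reached it. In the anterior archencephalon (background 19.2%) the genes called were *Soxb1c* and *Soxc*, in neural tailbud (21.2%) *Soxb1c* and *Soxb2*, and in tailbud (21.4%) *Soxc*. 0 of the members that passed the minimum reached the fold in epidermal/neural 1 (0 of 3, background 0.879%), anterior epidermis (0 of 3, 12.2%), posterior epidermis (0 of 4, 13.3%), notochord (0 of 1, 25.9%), non-muscular somites (0 of 2, 26.8%) and muscular somites (0 of 1, 36.0%). In the 5 remaining types every member had too few UMIs. In all, 12 pairs of gene and type were called. A gene of low total passes the minimum chiefly in the types where it is high, so this count is a description.

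**Figure D1:**
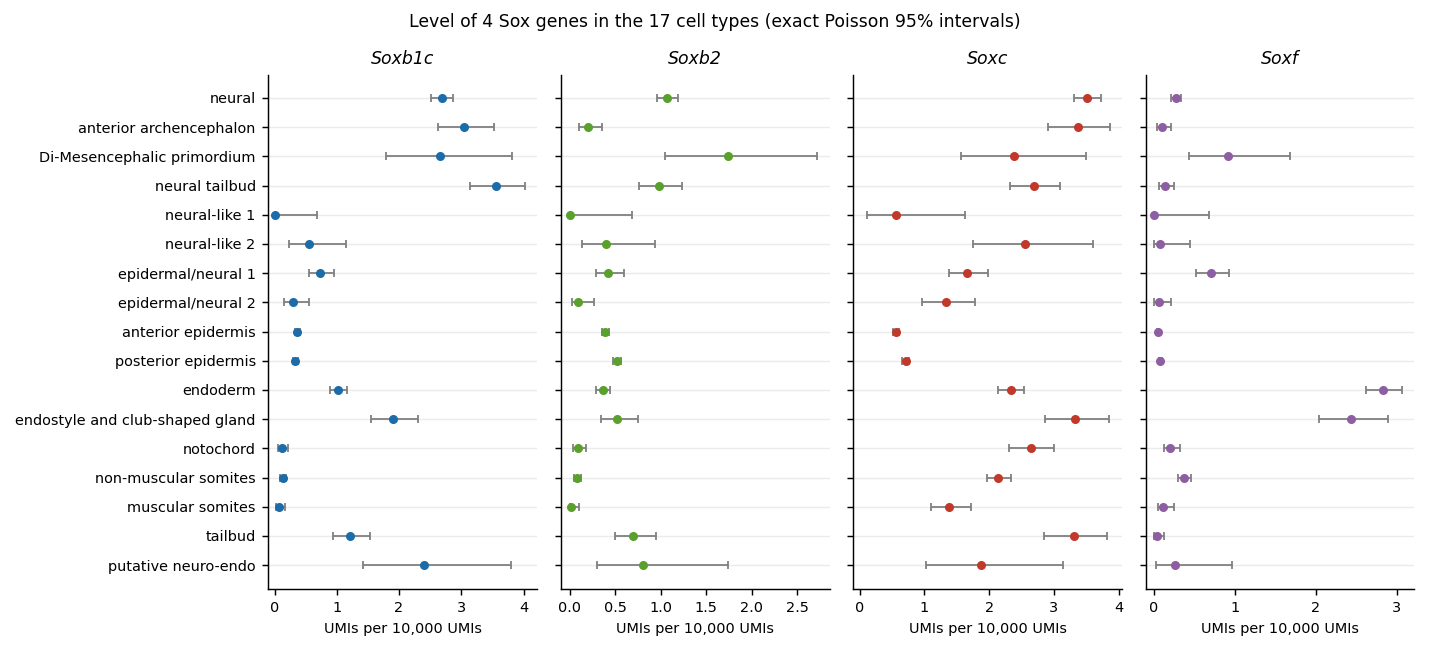
Level of each Sox gene in the 17 cell types, in UMIs per 10,000 UMIs, with points for the summed cells of a type and bars for exact Poisson 95% intervals. *Soxb1c* is at 2.66 or more in the 4 neural plate types, *Soxc* is at 2.14 or more in 10 types and lowest in anterior epidermis, and *Soxf* is at 2.44 or more in endoderm and in the endostyle and club-shaped gland and at 0.918 or less elsewhere.

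*Soxb1c*, the SoxB1 member of the set, had its highest level in neural tailbud cells, the posterior end of the neural plate, at 3.56 (3.14 to 4.02). The anterior archencephalon, the front of the neural plate, followed at 3.05 (2.62 to 3.52), neural cells at 2.68 (2.51 to 2.87) and the Di-Mesencephalic primordium at 2.66 (1.78 to 3.82), the last from 29 UMIs in 38 cells. Neural tailbud was apart from the anterior archencephalon by its counting interval, whereas anterior archencephalon, neural cells and Di-Mesencephalic primordium were each not apart from the next. Neural cells exceeded all other cells 4.64-fold (4.27 to 5.04).

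Outside the neural plate, *Soxb1c* reached 2.40 (1.42 to 3.80) in the class called putative neuro-endo, which rests on 18 UMIs in shallow cells with a median of 415.5 UMIs. In the endoderm lineage the endostyle and club-shaped gland had 1.90 (1.55 to 2.31), and the remaining endoderm had 1.03 (0.897 to 1.17). Tailbud cells, the posterior growth zone outside the neural plate, had 1.21 (0.9395 to 1.53). Both epidermal types were low, with 0.366 (0.328 to 0.408) in the anterior and 0.330 (0.295 to 0.369) in the posterior epidermis. The lowest levels above 0 were those of somites and notochord: 0.129 in non-muscular somites, 0.114 in notochord and 0.0681 in muscular somites, the last from 4 UMIs. Neural-like 1 cells had 0 UMIs of *Soxb1c*, in a type so small that 3 UMIs would have been a level of 0.555.

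Between these ends lay epidermal/neural 1 at 0.734 (0.551 to 0.957), neural-like 2 at 0.559 (0.225 to 1.15) and epidermal/neural 2 at 0.301 (0.144 to 0.554). Thus the 4 classes with neural in their name that are not neural plate had *Soxb1c* levels of 0.734 or less, under the 4 neural plate types. A UMI of *Soxb1c* was found in 31.4% of neural cells (28.8 to 34.0%, median depth 2401 UMIs) and in 4.06% of posterior epidermal cells (3.60 to 4.57%, median depth 1246 UMIs), which serve as background. When UMIs were drawn down to 500 per cell, and 30 neural and 548 posterior epidermal cells under that depth left out, the shares were 12.9% (11.03 to 14.9%) and 1.70% (1.39 to 2.06%).

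*Soxb1c* was uneven inside the neural plate. Its 3 highest metacells were number 39, a neural metacell, at 7.32 (5.07 to 10.2), number 51 of the neural tailbud at 6.92 (6.04 to 7.88) and number 45, neural, at 6.70 (5.94 to 7.54). The lowest neural plate metacell was number 49, neural, at 0.427, which lies within the range of the 119 epidermal metacells, whose highest was at 1.42. Of the 21 neural plate metacells, 15 were above that highest epidermal value, and all 21 were above the epidermal median of 0.338. Metacell 45 alone held 31.7% of the *Soxb1c* UMIs of neural cells.

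Metacells of a single type stood far apart. The neural tailbud consists of metacells 51 and 52, and *Soxb1c* was at 6.92 in the former and at 0.803 (0.549 to 1.13) in the latter, a ratio of 8.62 (5.93 to 12.9). Metacell 51 also had the higher level of *Tcf15-like*, a neural plate marker, with 24.8 against 5.17, whereas metacell 52 had the higher level of *Wnt1*, a signal of the tailbud, with 6.42 against 1.38. In the anterior archencephalon, metacells 36 and 53 were at 4.38 and 3.85 and metacell 35 at 0.783 (0.447 to 1.27). Metacell 37 had the highest levels of the neuronal genes *Elav*, an RNA-binding protein of neurons, at 56.3, and *Insm*, a zinc finger factor of differentiating neurons, at 11.2. Its *Soxb1c* level was 1.38, under the 2.68 of neural cells as a whole and the median of 2.14 over the 15 neural metacells.

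**Figure D2:**
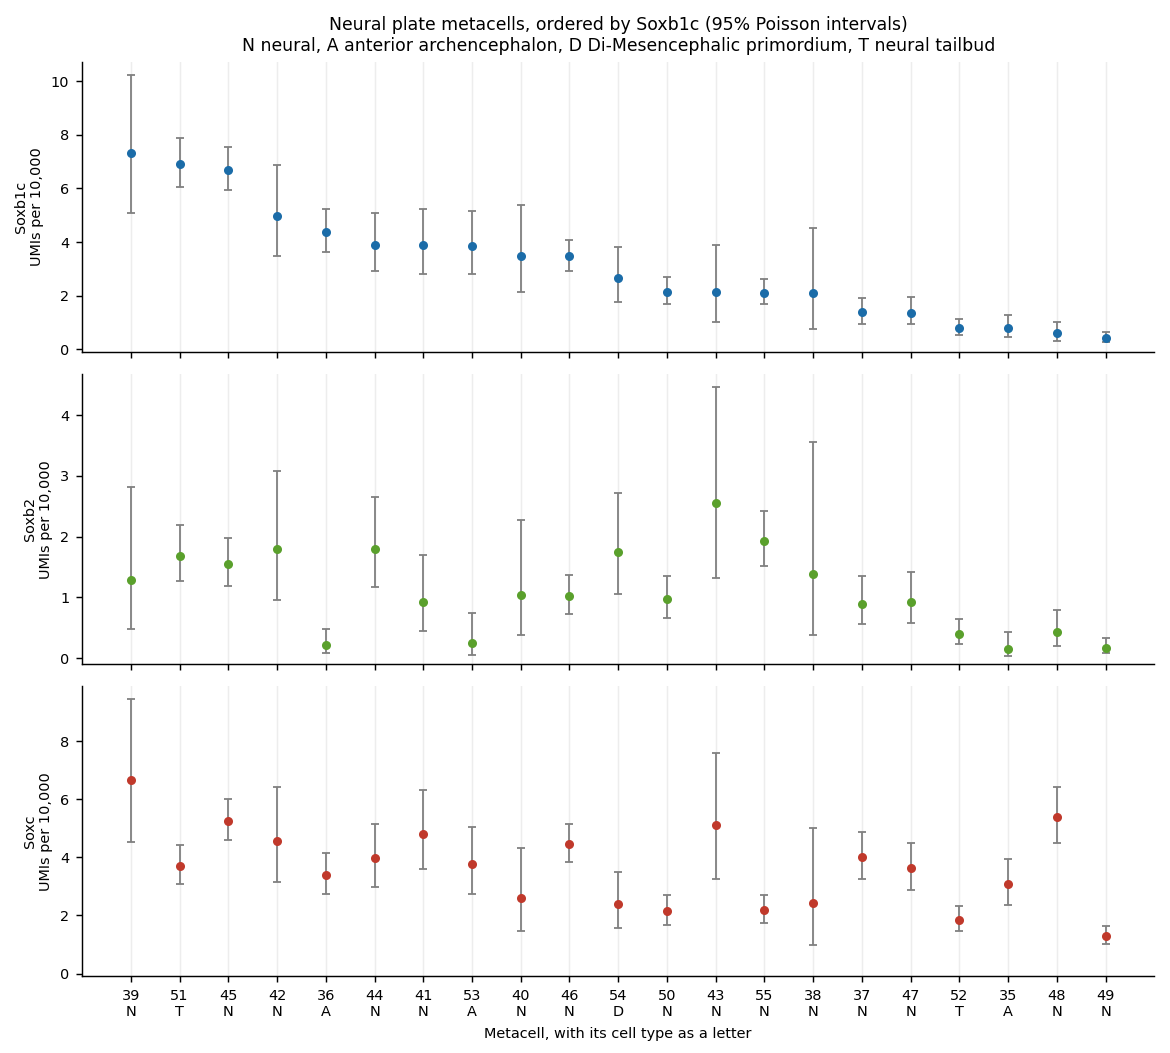
Levels of *Soxb1c*, *Soxb2* and *Soxc* in the 21 neural plate metacells, in UMIs per 10,000 UMIs with exact Poisson 95% intervals, ordered by *Soxb1c* from left to right. *Soxb1c* falls from 7.32 to 0.427 along the order, *Soxc* stays at 1.30 or more with 5.40 in metacell 48 near the low end, and *Soxb2* is at or under 0.257 in the 3 metacells of the anterior archencephalon.

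The metacells in these contrasts came in part from different sorting plates. Metacell 51 came from 21 plates and metacell 52 from 22, of which 8 were shared, and just 2 plates held at least 3 cells of each, with *Soxb1c* higher in metacell 51 on 1 of them. Other neural plate cells on the plates of metacell 51 had a mean *Soxb1c* level of 3.66, weighted by its cells, and those on the plates of metacell 52 had 1.68. Epidermal cells on the same plates were at 0.479 and 0.290. Metacells 36 and 53 came from 36 plates and metacell 35 from 25, of which 21 were shared. Other neural plate cells on these plates were at 3.42 and 1.64, and epidermal cells at 0.460 and 0.269. On 3 of 5 plates with at least 3 cells of each, *Soxb1c* was higher in metacells 36 and 53. These metacells were set against each other after their values were seen. The part of the plates in the differences between these metacells was not tested.

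Plates also differed as a whole. *Soxb1c* in neural plate cells ran from 0.375 (0.0455 to 1.36, 14 cells) on the lowest plate to 6.83 (4.46 to 10.0045, 33 cells) on the highest, with a median of 2.58 over 40 plates. In epidermal cells of these plates it ran from 0.0889 to 0.941. Over the 40 plates the levels in neural plate and epidermis had a Pearson correlation of 0.66 and a Spearman correlation of 0.64, given as a description, since the points of a plate share sorting, library and depth. The corresponding Pearson values were 0.058 for *Soxb2*, 0.017 for *Soxc* and, between endoderm with endostyle and epidermis over 39 plates, -0.16 for *Soxf*. On all 40 plates *Soxb1c* was nevertheless higher in neural plate than in epidermal cells. Neural cells were higher than posterior epidermal cells on 38 of 38 plates with at least 10 cells of each.

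**Figure D3:**
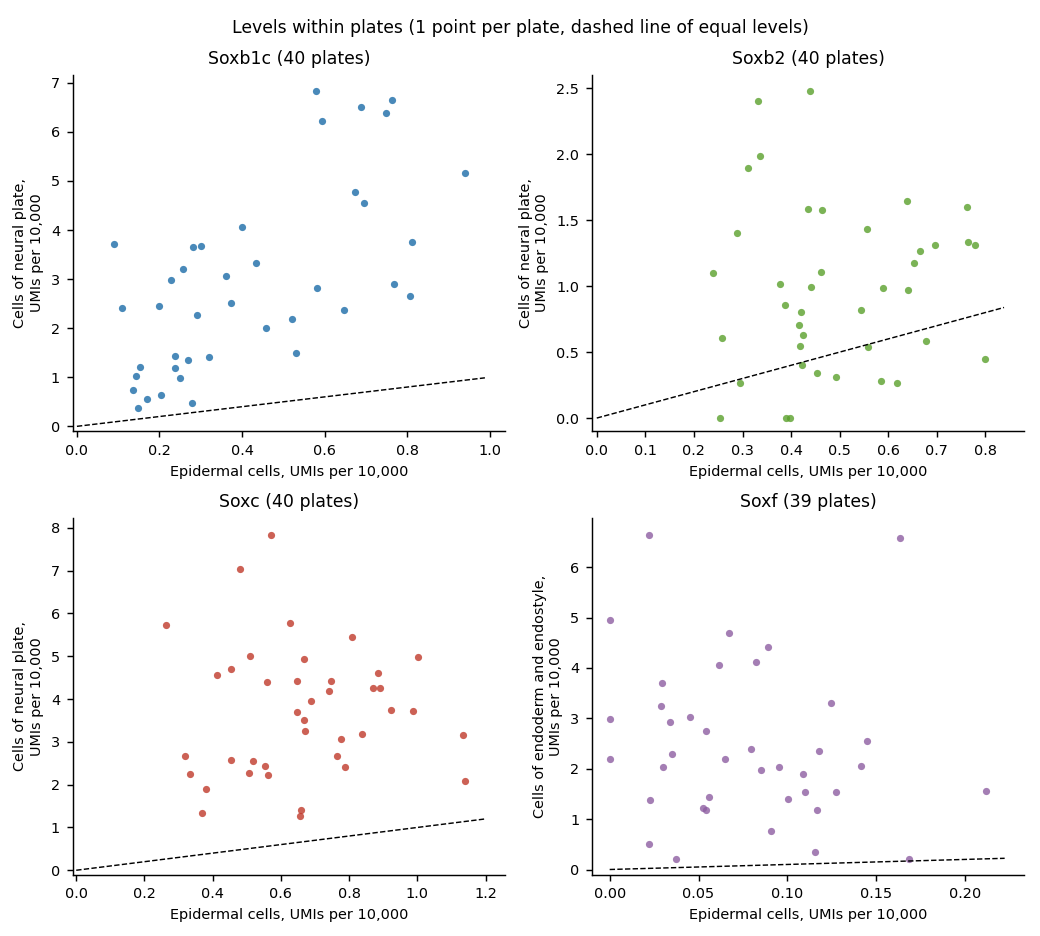
Level of each gene in epidermal cells (horizontal axis) and in neural plate cells, or endodermal cells for *Soxf* (vertical axis), in UMIs per 10,000 UMIs, with 1 point per plate and a dashed line of equal levels. For *Soxb1c* and *Soxc* the 40 points lie above the line, for *Soxb2* 28 of 40 do, for *Soxf* 39 of 39 do, and the *Soxb1c* points rise from left to right.

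*Soxb2*, the SoxB2 member, was at 0.963 (0.877 to 1.06) in the neural plate as a whole and at 0.454 (0.424 to 0.486) in the epidermis. The Di-Mesencephalic primordium had a level of 1.74 (1.050 to 2.72), neural cells had 1.07 (0.964 to 1.19) and neural tailbud 0.979 (0.764 to 1.23). Each was not apart from the next in the order, whereas Di-Mesencephalic primordium and neural tailbud were apart. Neural cells exceeded all other cells 2.63-fold (2.32 to 2.96). The anterior archencephalon was the exception in the neural plate, with 0.201 (0.104 to 0.351) from 12 UMIs in 245 cells, a ratio of 0.187 (0.0958 to 0.331) to neural cells. That low level was shared by its metacells, with 0.147 in metacell 35, 0.217 in 36 and 0.257 in 53, and anterior archencephalon cells were higher than neural cells on 2 of 32 plates with at least 3 cells of each. *Soxb1c* in the same cells was at 3.05, the second of its 17 types, whereas *Soxb2* was in the twelfth place of its own order.

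The order continued without a gap through putative neuro-endo at 0.801 (0.294 to 1.74), tailbud at 0.700 (0.5001 to 0.953), endostyle with club-shaped gland at 0.518 (0.344 to 0.748) and posterior epidermis at 0.515 (0.471 to 0.563). Epidermal/neural 1 had 0.421 (0.286 to 0.598), neural-like 2 had 0.400 (0.130 to 0.932), anterior epidermis 0.390 (0.350 to 0.433) and endoderm 0.359 (0.285 to 0.447). Notochord and somites were again low: notochord had 0.0911, non-muscular somites 0.0750 and muscular somites 0.0170, the last from 1 UMI. Epidermal/neural 2 had 0.0904 from 3 UMIs, and neural-like 1 had 0 UMIs. Epidermal cells, which held 58.3% of the UMIs of all genes, held 55.6% of those of *Soxb2*, and neural plate cells, with 14.8% of all UMIs, held 29.9%.

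A UMI of *Soxb2* was found in 17.9% of neural cells (15.8 to 20.2%) and in 5.93% of posterior epidermal cells (5.37 to 6.53%), at the depths given for *Soxb1c*. Thinned to 500 UMIs, the shares were 5.28% (4.09 to 6.69%) and 2.38% (2.01 to 2.80%). Within plates, neural cells were higher than posterior epidermal cells on 28 of 38 plates, and on 2 plates neural cells had 0 UMIs.

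The highest *Soxb2* metacells were neural: number 43 at 2.55 (1.32 to 4.46, 12 UMIs), number 55 at 1.93 (1.52 to 2.42, 74 UMIs) and number 44 at 1.80 (1.17 to 2.66). Metacells 44 and 55 had the highest levels of *Nkx2.1*, a homeobox factor of ventral brain and endoderm, in the neural plate, with 3.97 and 7.93. Together their *Soxb2* level was 1.90 (1.54 to 2.31) against 0.917 (0.807 to 1.04) in the other neural metacells, a ratio of 2.07 (1.62 to 2.62), and they were higher on 15 of 26 plates with at least 3 cells of each set. The pair was set apart here after the values were seen. The lowest neural metacell was number 49 at 0.175, which was also the lowest for *Soxb1c*.

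Among the 119 epidermal metacells, *Soxb2* ran from 0 to 1.65 with a median of 0.394, and 6 of the 21 neural plate metacells were above that range. The highest epidermal value was metacell 168 of the posterior epidermis, with 29 UMIs, of which 8 came from a single cell with 1045 UMIs in all. Without that cell its level was 1.201. A neural cell also held 8 UMIs, and these were the highest counts of *Soxb2* in a cell of the atlas.

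*Soxc*, the SoxC member, had UMIs in every cell type. The highest levels were 3.51 (3.31 to 3.72) in neural cells, 3.36 (2.92 to 3.86) in the anterior archencephalon, 3.33 (2.86 to 3.85) in endostyle with club-shaped gland and 3.31 (2.85 to 3.81) in tailbud, and these 4 neighbours in the order were not apart. Thus a neural, an endodermal and a tailbud type shared the top. Neural cells exceeded all other cells 2.84-fold (2.65 to 3.03).

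Lower levels followed: neural tailbud had 2.69 (2.32 to 3.09), notochord 2.64 (2.31 to 3.004), neural-like 2 had 2.56 (1.75 to 3.61), the Di-Mesencephalic primordium 2.39 (1.56 to 3.50), endoderm 2.33 (2.13 to 2.54) and non-muscular somites 2.14 (1.96 to 2.34). Below them stood putative neuro-endo at 1.87 (1.02 to 3.14), epidermal/neural 1 at 1.66 (1.38 to 1.98), muscular somites at 1.38 (1.10 to 1.71) and epidermal/neural 2 at 1.33 (0.963 to 1.78). Posterior epidermis at 0.709 (0.656 to 0.764), neural-like 1 at 0.555 (0.114 to 1.62) and anterior epidermis at 0.555 (0.507 to 0.605) were lowest. The differentiated muscle cells thus lay under the non-muscular part of the somites, and the epidermis under every mesodermal type.

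A UMI of *Soxc* was found in 41.0% of neural cells (38.3 to 43.8%) and in 7.85% of posterior epidermal cells (7.21 to 8.53%). After thinning to 500 UMIs the shares were 15.7% (13.7 to 17.9%) and 3.40% (2.96 to 3.89%). On that footing the share was 15.4% (11.4 to 20.3%) in tailbud, 15.3% (10.8 to 20.7%) in endostyle with club-shaped gland, 11.9% (8.84 to 15.6%) in notochord and 3.35% (1.24 to 7.15%) in muscular somites. Neural cells were higher than posterior epidermal cells on 38 of 38 plates.

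The 3 highest *Soxc* metacells came from both lineages: number 39, neural, at 6.67 (4.53 to 9.47), number 1, endodermal, at 6.04 (5.26 to 6.91) and number 48, neural, at 5.40 (4.50 to 6.44). Metacell 39 was thus first for *Soxb1c* and for *Soxc*, from 34 and 31 UMIs in shallow cells with a median of 867.5 UMIs. Metacell 48 was high for *Soxc* and at 0.605 for *Soxb1c*, so the SoxC gene did not follow the SoxB1 gene there. Metacell 49 was the lowest neural metacell for *Soxc*, at 1.30 (1.01 to 1.65), and the ratio of metacell 48 to 49 was 4.16 (3.07 to 5.68). These metacells shared 12 plates, and on the 3 plates with at least 3 cells of each, metacell 48 was higher on 1. In metacell 37, the one with most *Elav*, *Soxc* was at 4.01. The median was 4.01 over the 15 neural metacells and 3.70 over the neural plate metacells.

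Within endoderm, *Soxc* was highest in metacell 1, which was eighth of the 13 endodermal metacells by *Soxf*, and it did not follow the order of *Soxf*. Metacell 1 was at 6.04, metacell 5 at 4.34 and metacell 6 at 3.28. Their reference was the other metacells of the endoderm type, without metacells 3 and 10 of the endostyle and club-shaped gland. The 3 together were at 5.23 (4.63 to 5.89) against 1.46 (1.29 to 1.65) in that reference, a ratio of 3.57 (3.001 to 4.26). They were higher on 28 of 33 plates with at least 3 cells of each set. Metacells 5 and 6 had *Nkx2.1*, a marker of ventral endoderm, at 7.23 and 4.73, and metacell 1 at 1.56. *Soxf* in the same 3 metacells was at 2.37 (1.97 to 2.83) against 2.97 (2.72 to 3.24) in the rest of the endoderm type. It was higher in the 3 on 13 of 33 plates. Metacell 4 held 245 of the 516 *Soxf* UMIs of that rest. Without metacell 4 the whole endoderm type was at 2.30 (2.08 to 2.54), so the difference rested on that metacell. The lowest endodermal *Soxc* level was 0.846 in metacell 2. In the endostyle and club-shaped gland, metacell 3 had 4.17 (3.50 to 4.95) and metacell 10 had 2.11 (1.55 to 2.81), and *Soxb1c* differed in the same direction, with 2.57 (2.05 to 3.20) against 0.945 (0.585 to 1.44). They shared 14 plates, of which 1 held at least 3 cells of both, and there *Soxb1c* was higher in metacell 3 and *Soxc* was not. Other endodermal cells on the plates of metacells 3 and 10 were at 0.954 and 1.37 for *Soxb1c* and at 2.58 and 2.84 for *Soxc*, in both cases lower on the plates of metacell 3.

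In the mesoderm the level of *Soxc* ran from 0.996 in metacell 26 of the non-muscular somites to 4.54 in metacell 32 of the tailbud. Metacell 26 was at 0.399 times (0.297 to 0.528) the level of the other non-muscular somite metacells and was higher than them on 5 of 17 plates. In the epidermis the highest value was 2.58 in metacell 176 from 8 UMIs, and 15 of the 21 neural plate metacells were above it.

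**Figure D4:**
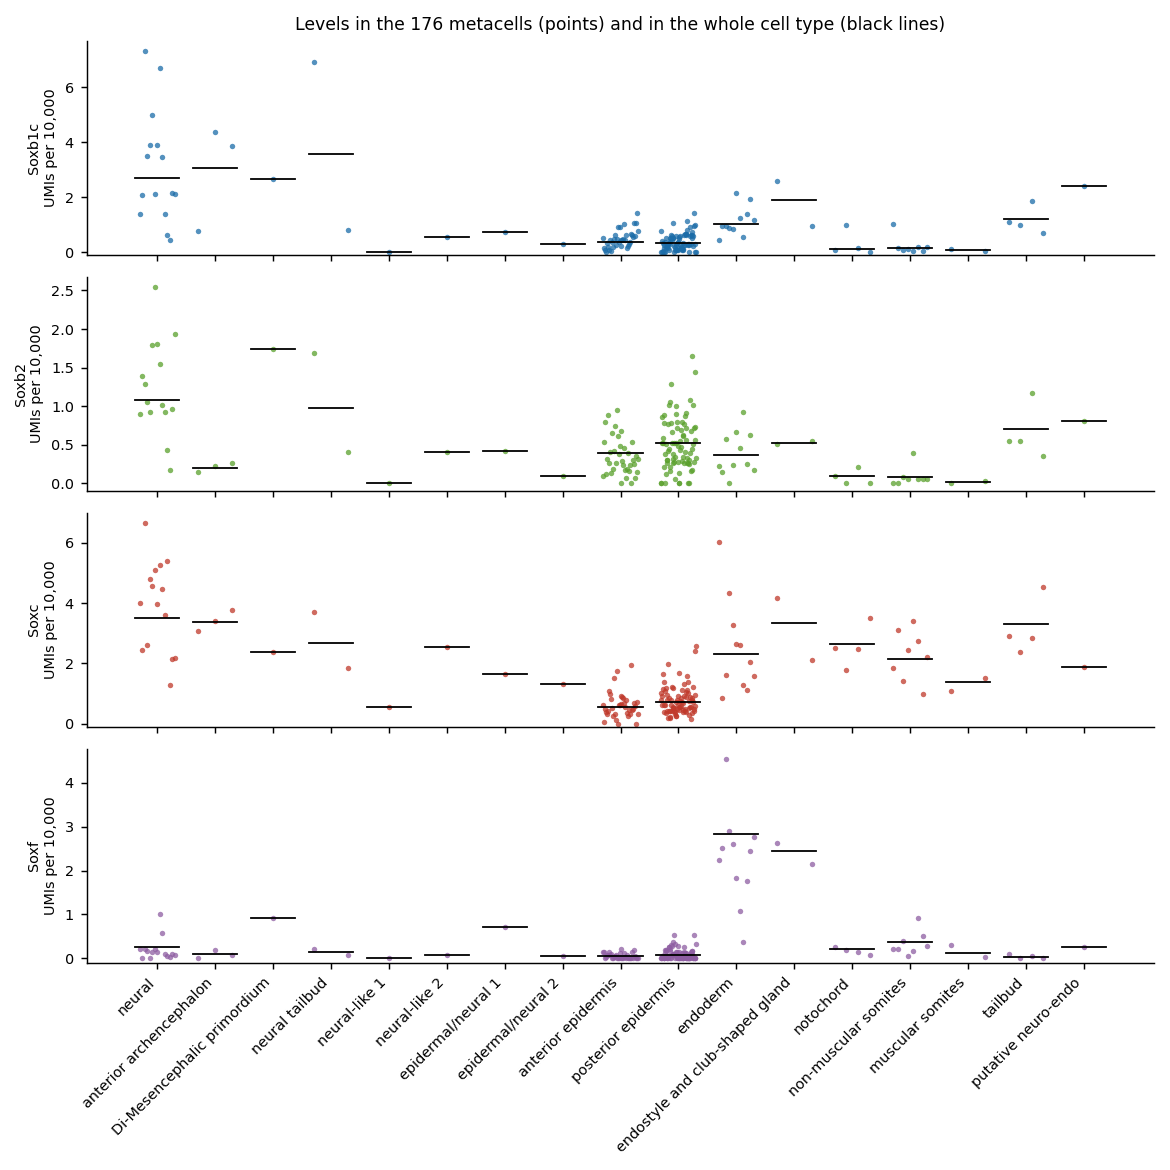
Level of each gene in the 176 metacells, in UMIs per 10,000 UMIs, with 1 point per metacell, columns for the 17 cell types and black lines for the summed cells of the type. *Soxb1c* spreads from 0.427 to 7.32 among neural metacells, *Soxb2* overlaps between neural and epidermal metacells, and *Soxc* is above the epidermal median of 0.622 in all 21 neural plate, 13 endodermal and 18 mesodermal metacells. The 12 highest *Soxf* metacells are all of endoderm or of the endostyle and club-shaped gland, and neural metacell 45 comes next at 1.013.

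*Soxf*, the SoxF member, led in the endoderm lineage. Endoderm had a level of 2.84 (2.62 to 3.06), the endostyle and club-shaped gland, organs of the larval pharynx, had 2.44 (2.04 to 2.89), and the pair was not apart, whereas the next type was apart from them. Endoderm exceeded all other cells 15.4-fold (13.7 to 17.3), and the endostyle and club-shaped gland did so 7.26-fold (6.01 to 8.71), with endoderm among the cells it was set against. Next came the Di-Mesencephalic primordium at 0.918 (0.440 to 1.69), from 10 UMIs in 38 cells, and epidermal/neural 1 at 0.706 (0.528 to 0.926). The latter class had the deepest cells of the atlas, with a median of 6757.5 UMIs, and the part of depth in its level was not tested.

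The other types had low *Soxf* levels. Non-muscular somites were at 0.379 (0.305 to 0.466), neural cells at 0.269 (0.216 to 0.332), putative neuro-endo at 0.267 (0.0323 to 0.965), notochord at 0.205 (0.121 to 0.324), neural tailbud at 0.138 (0.0661 to 0.254) and muscular somites at 0.119 (0.0479 to 0.246). The anterior archencephalon had 0.1004 (0.0369 to 0.219), neural-like 2 had 0.0799 (0.00202 to 0.445), posterior epidermis 0.0794 (0.0626 to 0.0994), epidermal/neural 2 had 0.0602 (0.00730 to 0.218), anterior epidermis 0.0523 (0.0385 to 0.0696) and tailbud 0.0350 (0.00424 to 0.126). Neural-like 1 had 0 UMIs. *Soxf* was at 0 in 61 of the 176 metacells, of which 17 were of the anterior and 38 of the posterior epidermis. The other counts were 11 for *Soxb1c*, 16 for *Soxb2* and 2 for *Soxc*. The genes had unequal totals, 1183 UMIs for *Soxf* against 2529, 1517 and 4683 in the same order. The part of these totals in the counts of empty metacells was not tested.

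A UMI of *Soxf* was found in 27.3% of endoderm cells (24.3 to 30.5%, median depth 1936.5 UMIs) and in 3.30% of muscular somite cells (1.22 to 7.04%, median depth 2182 UMIs), the background type for this gene. Thinned to 500 UMIs, with 70 endoderm cells left out, the shares were 8.94% (7.02 to 11.2%) and 1.12% (0.136 to 3.98%). Most endoderm cells thus had 0 UMIs of *Soxf*, and 77 of 842 cells had 3 or more, up to 20. The 10 endoderm cells with most UMIs held 20.03% of the *Soxf* UMIs of that type. Endoderm was higher than posterior epidermis on 37 of 39 plates with at least 10 cells of each, and it had 0 UMIs on the 2 remaining plates.

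Within endoderm, *Soxf* was highest in metacell 4 at 4.55 (4.00 to 5.15, 245 UMIs), followed by metacell 5 at 2.89 (1.39 to 5.32, 10 UMIs) and metacell 13 at 2.77 (1.90 to 3.89, 33 UMIs). Metacell 4 had *Foxaa* (BLAG04001275), a forkhead factor of endoderm and notochord, at 5.51 and *Wnt8*, a posterior Wnt ligand, at 4.19. It was at 1.98 times (1.68 to 2.33) the level of the other metacells of the endoderm type. It was higher on 7 of 11 plates with at least 3 cells of each. The lowest was metacell 9 at 0.369, from 2 UMIs, which had more *Foxaa* than metacell 4, with 8.12, and *Nkx2.2* at 2.77. Metacell 8 was at 1.07. Metacells 9 and 8 were shallow, with medians of 749 and 945 UMIs per cell against 4318 in metacell 4. Apart from metacell 9, the 12 endodermal metacells were above the highest level outside the endoderm lineage among neural plate, epidermal and mesodermal metacells, which was 1.01 (0.730 to 1.37) in metacell 45. The 1.07 of metacell 8 lay within that interval. Metacells 3 and 10 of the endostyle and club-shaped gland were at 2.64 (2.103 to 3.26) and 2.16 (1.59 to 2.86), a ratio of 1.22 (0.847 to 1.78).

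**Figure D5:**
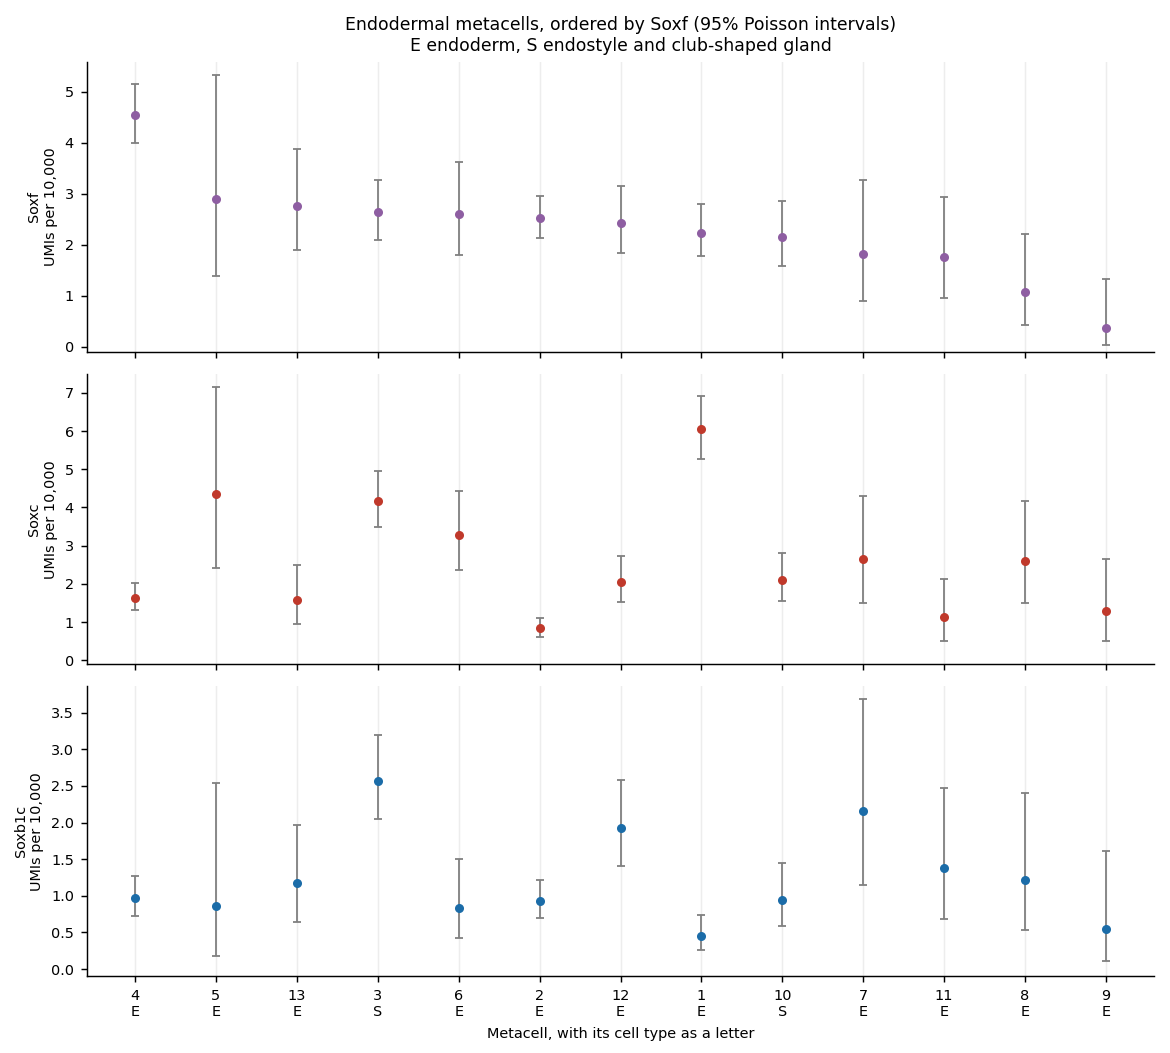
Levels of *Soxf*, *Soxc* and *Soxb1c* in the 13 metacells of endoderm (E) and of the endostyle and club-shaped gland (S), in UMIs per 10,000 UMIs with exact Poisson 95% intervals, ordered by *Soxf*. *Soxf* falls from 4.55 in metacell 4 to 0.369 in metacell 9, and *Soxc* peaks at 6.04 in metacell 1 without following that order.

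Outside the endoderm the *Soxf* UMIs were unevenly spread. In neural cells, metacell 45 had 42 of the 88 UMIs and a level of 1.01 (0.730 to 1.37), against 0.161 (0.118 to 0.215) in the other neural metacells, and it was higher on 6 of 11 plates with at least 3 cells of each. In non-muscular somites, metacell 25 was at 0.912 and metacell 26 at 0.498. A single cell of metacell 26 held 20 of the 91 somite UMIs, as many as the highest endoderm cell. Without it the type was at 0.297 (0.232 to 0.374) and metacell 26 at 0.143.

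Depth within a type moved with the levels. Neural cells at or under their median of 2401 UMIs had higher levels than those over it: 3.44 (3.05 to 3.87) and 2.43 (2.24 to 2.63) for *Soxb1c*, 1.64 (1.38 to 1.94) and 0.882 (0.768 to 1.01) for *Soxb2*, and 4.56 (4.11 to 5.05) and 3.16 (2.94 to 3.39) for *Soxc*. For *Soxf* in endoderm the order was the other way, with 1.41 (1.07 to 1.81) in the shallower and 3.17 (2.92 to 3.44) in the deeper cells. The parts of depth and of plates in the differences between metacells were not tested.

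Cells with a UMI of one of the genes were compared with cells without it inside a type, after thinning to 1000 UMIs. Among 184 neural cells with a *Soxb1c* UMI, 21.7% (16.0 to 28.4%) also had *Soxb2*, against 7.55% (5.87 to 9.52%) of the 861 cells without. For *Soxc* the shares were 28.3% (21.9 to 35.4%) and 24.0% (21.2 to 27.0%), and among cells with and without *Soxb2* they were 29.5% (21.0 to 39.2%) and 24.3% (21.5 to 27.1%), with intervals that overlap. In endoderm, *Soxc* was found in 18.6% (11.4 to 27.7%) of the 97 cells with *Soxf* and in 19.2% (15.9 to 22.8%) of the 526 without. *Soxb1c* was found in 6.19% (2.30 to 13.0%) and 10.1% (7.64 to 13.0%) of them. These shares describe cells of 1 sample and take no account of plates.

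The 3 other Sox genes that the study names gave further patterns. The text of the study writes *Sox2* in brackets after *Soxb1c*, and the gene named SOX2 below is a different gene. The gene that the study names SOX2 (BLAG04001831) was at 2.18 (2.02 to 2.35) in neural cells, 2.14 (1.77 to 2.55) in tailbud, 1.61 (1.54 to 1.70) in posterior and 1.48 (1.40 to 1.56) in anterior epidermis, and at 0.0932 (0.0577 to 0.142) in endoderm. In its own order both epidermal types thus stood above endoderm, whereas *Soxb1c* had the reverse, with 1.03 in endoderm and 0.366 or less in the epidermal types. The gene named SOX6 (BLAG03001806), of the SoxD group in vertebrates, was highest in the anterior archencephalon at 1.51 (1.21 to 1.85). Notochord followed at 0.865 (0.682 to 1.08). Metacell 36 held 82.2% of the archencephalon UMIs, and without it the level was 0.498 (0.285 to 0.808). Metacell 16 held 73.7% of the notochord UMIs, and without it the level was 0.578 (0.353 to 0.893). These 2 reduced levels were not apart. The gene named SOX9 (BLAG09000361), of the SoxE group in vertebrates, was highest in notochord at 5.04 (4.58 to 5.53). Over the 21 neural plate metacells, *Soxb2* had its closest match among the 6 other Sox genes in the gene named SOX2, with a Pearson correlation of 0.68 on log2 levels. *Soxb1c* was at 0.54 with *Soxb2* and with the gene named SOX2 and at 0.52 with *Soxc*. It was at nearly the same values with the gene named SOX6 (0.51) and with *Soxf* (0.50), and at 0.19 with the gene named SOX9. Over all 176 metacells *Soxf* and the gene named SOX2 had a correlation of -0.58. These are descriptions across metacells, which share plates and depth.

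The genes most alike each member over the 176 metacells were sought among 6819 genes with at least 500 UMIs, by the Pearson correlation of log2(UMIs per 10,000 + 0.1). For *Soxf* the nearest were BLAG07000527, *PLAC8 motif-containing protein 1*, at 0.69, and BLAG04001279, *Pax1/9*, a paired-box factor of the pharyngeal endoderm, at 0.67, followed by BLAG03000973, BLAG18000820 and BLAG19000848 at 0.66 to 0.67. For *Soxc* they were BLAG15000669, which the study's orthology table names PPIF, BLAG01000427, named SYNCRIP, BLAG03102295, BLAG06000553, named HMGB1, and BLAG08000925, with values of 0.74 to 0.75. For *Soxb1c* they were BLAG09001124 at 0.63, BLAG02001860, BLAG04000645, BLAG13000700 and BLAG01000922, the last at 0.59. For *Soxb2* the values were lower, with *Hey-related* (BLAG01000808), a Notch-responsive bHLH factor, at 0.48, then BLAG04000645, BLAG14000821, BLAG03001586 and BLAG03001048, *Msx*, a homeobox factor of the dorsal neural tube, at 0.42. BLAG04000645 was on the lists of both SoxB genes.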

How the data were processed

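Wild-type *B. lanceolatum* neurulae were pooled and dissociated, and live single cells were sorted into multiwell plates with scatter gates against doublets. Per the study's methods the authors mapped MARS-seq reads with STAR to the genome with multimapping reads allowed, assigned them to exonic intervals and filtered out UMIs that looked like sequencing or amplification errors. The deposited counts are raw UMI counts by the authors of 27073 genes in 14586 cells, and their annotation assigns every cell to a metacell and to a type, both built from these counts. Metacell numbers are those of that annotation. The deposited table of metacell fold changes was not used, and doublets were not called again. 0 columns of other samples were left out.

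The 4 genes, the marker list and the comparisons were chosen with earlier results of these data known. Levels were summed UMIs per 10,000 UMIs with exact Poisson 95% intervals, shares of cells have Clopper-Pearson 95% intervals, and both cover counting error only, so spread between plates comes on top. Folds set a level against all other cells. Values that neighbour each other in an order were called apart where neither interval held the other value. Percentages of genes at a fold of 2 are over genes that had 50 or more UMIs there. Sorting plates were read from the cell names. The text names the members in each cell type, their 3 highest and their lowest metacells, the other named Sox genes, the marker genes and the 5 genes most alike each member. Other metacells, the sets of metacells set against each other, and single cells were chosen after their values were seen. No sequence or coordinate of the genes was used here. Values were computed in Python 3.11.15 (pandas 2.3.3, scipy 1.17.1, numpy 2.4.6) and drawn with matplotlib 3.10.9. The fold calls, the Poisson intervals and the thinning were tested on counts simulated at the real depths. That simulation held no spread between plates, and the other steps were not tested in this way.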

Additional observations from a re-analysis of the deposited data

How the results depend on the processing

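No paired analysis was possible because the cells form 1 sample and their names do not carry the sample number, and for the same reason no replicate could be left out. The main values were the level and fold of neural cells for *Soxb1c*, *Soxb2* and *Soxc* and of endoderm for *Soxf*. Each of these folds stayed above 2 under the alternatives run, and the order of the cell types was not among the values compared. Of 45 alternative values for these levels and folds and for the count of pairs at a fold of 2, 24 lay within the counting interval of the value given (or 1.5 times, for the count) and 21 outside. As a mean over cells, the level was 3.15 for *Soxb1c*, 1.31 for *Soxb2* and 3.89 for *Soxc* in neural cells and 2.17 for *Soxf* in endoderm, and the fold was 3.002 for *Soxb2* and 3.24 for *Soxc*. Without the metacell with most UMIs of the gene, an alternative chosen after seeing the data, the levels were 2.101 (*Soxb1c*, without 45), 0.960 (*Soxb2*, without 55), 3.26 (*Soxc*, without 45) and 2.298 (*Soxf*, without 4), and the folds 3.63 for *Soxb1c*, 2.63 for *Soxc* and 12.5 for *Soxf*. As medians over plates, the folds were 4.06 for *Soxb1c*, 2.39 for *Soxc* and 12.4 for *Soxf*, and the *Soxf* level was 2.18. Against posterior epidermis alone the folds were 8.13, 2.08, 4.96 and 35.7 in the order *Soxb1c*, *Soxb2*, *Soxc* and *Soxf*. The lists of 5 most alike genes depended on the setting: over cell types in place of metacells they shared 0, 0, 0 and 1 genes with the lists given, in the same order, and with a pseudocount of 1 they shared 3, 1, 4 and 2. Of the 176 metacells, 16 had 0 UMIs of *Soxb2* and 61 had 0 of *Soxf*, and how far depth limits these was not tested.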
